A study of Mus musculus with 2 samples.

Results

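Trypsin-like serine proteases, the plasminogen activators and the Kunitz and Kazal inhibitors that block such enzymes were examined in uterine epithelium of pregnant mice. Members were taken by gene symbol: the Prss, Tmprss, Klk, Htra, Spint and Spink families together with St14, Hpn, Plat, Plau and Plaur. The array named 55 such genes among 12393 genes, each read through its brightest probe set, and 20 of the 55 exceeded the detection floor, defined further on, in either array or both.

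The Stat3 knockout array carried RNA of uterine epithelial cells from Stat3 knockout mice, and the control array carried RNA of the same cells from control mice, which the titles call Stat3 flox. Both groups were taken on day 4 of pregnancy, untreated, and each array read 1 pool of RNA (n = 3 per sample before pooling). The titles of both samples name the control mice, so the groups rest on the genotype and description labels, and neither the Cre driver nor the age of the mice is stated in the sources used here. Epithelium was freed with bovine pancreatic trypsin, a serine protease added to the tissue as protein.

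Many serine proteases of this kind cut after basic residues and are made as inactive precursors that another protease must cut. On epithelial cells, matriptase (St14) and prostasin (Prss8) form an activating pair at the membrane that is held in check by the Kunitz inhibitors HAI-1 (Spint1) and HAI-2 (Spint2). Plasminogen activators turn plasminogen into plasmin, which degrades fibrin and matrix. In the mouse uterus around implantation, glands are known to produce implantation serine proteinases (Prss28 and Prss29), and the Kazal inhibitor Spink1, a secreted trypsin inhibitor best known from the pancreas, is also made in the reproductive tract.

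Values are MAS5 signals, the background-corrected brightness of a probe set on a linear scale. A signal under 14.0, the 40th percentile of the signals of all non-control probe sets, was set to that floor, and a gene under it on both arrays was given no ratio. With 1 array per group there is no spread between replicates, so no test across animals was possible and a 2-fold limit was used as a rule of size only. The only error available was that between probe sets of 1 gene, whose log2 ratios had an SD of 0.28 per probe set over 2853 genes. Signals of different genes come from different probes and were not compared with each other.

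Stat3 itself was lower in the knockout array. Its brightest probe set had a signal of 186 in the knockout and 582 in the control (log2 ratio -1.64), and the next probe set had 160.0 in the knockout and 430.0 in the control (log2 ratio -1.43). A remaining probe set was under the floor, with 3.35 in the knockout and 6.66 in the control. Whether these probes lie in the deleted part was not determined here. Both arrays had a mean signal of 150.1 once the outer 2% at either end were left out, and the 3′ to 5′ signal ratio of Gapdh, a measure of RNA integrity, was 0.699 in the knockout and 0.736 in the control; that of Actb was 1.561 in the knockout and 1.504 in the control. All 11 epithelial markers were over the floor on both arrays, with 1 of them past 2-fold downward in the knockout. Krt8 had 4289 in the knockout and 4220 in the control, Krt7 had 460.3 in the knockout and 1592 in the control (log2 ratio -1.79), and Elf3 had 432 in the knockout and 842 in the control (-0.96). Stromal markers summed to 3646 in the knockout and 2664 in the control, with 8 of 10 over the floor. Macrophage markers summed to 658 in the knockout and 439 in the control, with 6 of 7 over the floor; Lyz2 had 296 in the knockout and 154 in the control, while Cd68 had 44.4 in the knockout and 81.1 in the control. All 7 neutrophil and all 4 pancreatic acinar markers were under the floor on both arrays, as were 6 of 7 mast cell markers. Markers of dividing cells were lower by 2-fold or more in 8 of 8 cases, with sums of 984 in the knockout and 7392 in the control. In pooled tissue RNA, fewer cells of a type and less RNA per cell cannot be told apart, and the part of these markers in the results below was not tested.

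Of the 20 measured members, 5 exceeded 2-fold upward in the knockout (Spink1, Klk8, Klk11, Tmprss13 and Klk1, the last 2 as bounds) and 4 exceeded it downward (Prss22, Htra1, Plaur and Plat), while 11 lay within it. The 5 higher members had control signals near or under the floor, from 8.73 in Tmprss13 to 17.96 in Klk11. For these 5 no ratio past 2-fold downward was possible. Among all 8304 genes with a ratio, 7.37% exceeded 2-fold upward and 9.92% downward. Those shares include genes of any control signal, so they are no matched comparison for the upward count. The median log2 ratio, knockout over control, was 0.05 for the members and 0.05 for all genes with a ratio. The quartiles were -0.70 and 1.01 for the members, and -0.40 and 0.46 for all genes. The members had 10 ratios above 0 and 10 below. With the floor at the 60th percentile, 10 members had a ratio, of which Spink1 was past 2-fold upward and Prss22 and Plat downward, against 5.61% and 7.27% of all genes with a ratio at that floor, while the kallikreins, Tmprss13, Htra1 and Plaur had none. These counts describe 20 genes on a single pair of arrays.

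**Figure D1:**
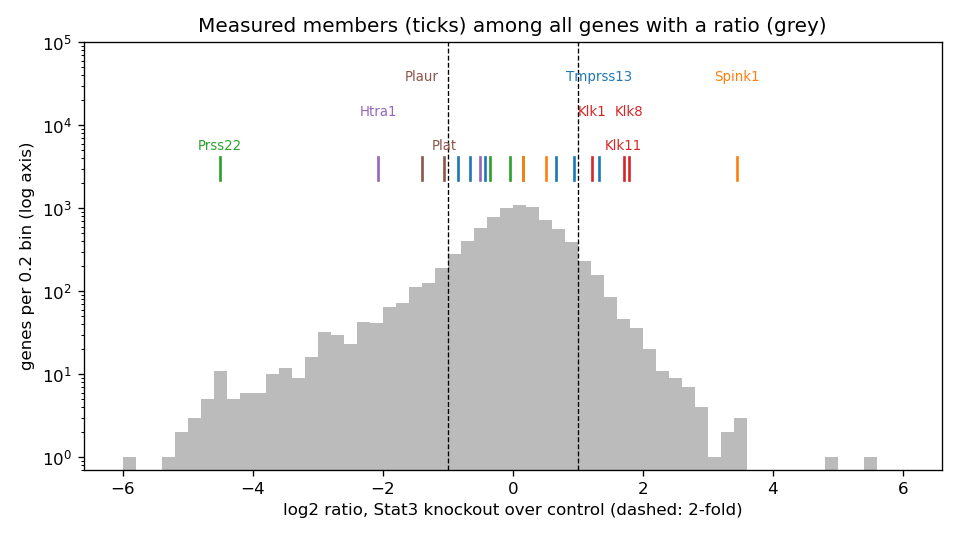
Number of genes (vertical, log axis) by log2 ratio of Stat3 knockout over control (horizontal, bins of 0.2) for the 8304 genes with a ratio, in grey. Coloured ticks are the 20 measured members and dashed lines mark 2-fold; Prss22 lies far to the left at -4.51 and Spink1 far to the right at 3.44.

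The promoters of the 3 measured kallikreins and of 2 members that were lower are shown first. They are the members past 2-fold for which a promoter sequence was at hand. Prss22, Spink1, Plat and Tmprss13, also past 2-fold, had none, so the members with the largest ratios are not among those shown. Promoter sequences (RefSeq, GRCm38.p6) were matched by gene ID for 12 of the 20 measured members. No such sequence was found for Prss8, St14, Tmprss4, Tmprss13, Prss22, Htra2, Plat and Spink1. Each sequence below is the 250 bases before an annotated transcription start, read 5′ to 3′ on the gene's strand. Capitals mark matches on either strand to GGGCGG, the GC box that SP and KLF factors bind, or to TGANTCA, the AP-1 element. The STAT element TTCNNNGAA and TATAAA were also searched for and had no match in these 6 windows.

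Klk1 (chr7:44225110-44225359, plus strand): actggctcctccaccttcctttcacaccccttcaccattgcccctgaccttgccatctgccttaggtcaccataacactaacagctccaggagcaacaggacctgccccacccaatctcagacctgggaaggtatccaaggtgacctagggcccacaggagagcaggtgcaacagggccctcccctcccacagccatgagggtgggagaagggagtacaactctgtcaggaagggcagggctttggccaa

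Klk8 (chr7:43797327-43797576, plus strand): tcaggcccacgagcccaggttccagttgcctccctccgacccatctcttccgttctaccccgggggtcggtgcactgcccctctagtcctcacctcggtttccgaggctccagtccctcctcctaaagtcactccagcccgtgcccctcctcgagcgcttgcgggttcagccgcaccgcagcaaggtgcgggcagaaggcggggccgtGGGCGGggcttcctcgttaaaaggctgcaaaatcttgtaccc

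Klk11, first start (chr7:43774367-43774616, plus strand): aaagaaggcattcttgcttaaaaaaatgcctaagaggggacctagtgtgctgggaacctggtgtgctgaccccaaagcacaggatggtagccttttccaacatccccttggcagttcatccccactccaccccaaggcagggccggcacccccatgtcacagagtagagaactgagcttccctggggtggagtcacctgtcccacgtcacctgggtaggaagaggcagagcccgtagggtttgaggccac

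Klk11, second start (chr7:43776079-43776328, plus strand): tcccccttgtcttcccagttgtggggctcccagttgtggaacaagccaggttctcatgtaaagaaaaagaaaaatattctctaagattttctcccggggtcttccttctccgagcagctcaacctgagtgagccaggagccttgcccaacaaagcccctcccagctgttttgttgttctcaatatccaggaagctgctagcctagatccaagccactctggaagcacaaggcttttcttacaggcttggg

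Htra1 (chr7:130935953-130936202, plus strand): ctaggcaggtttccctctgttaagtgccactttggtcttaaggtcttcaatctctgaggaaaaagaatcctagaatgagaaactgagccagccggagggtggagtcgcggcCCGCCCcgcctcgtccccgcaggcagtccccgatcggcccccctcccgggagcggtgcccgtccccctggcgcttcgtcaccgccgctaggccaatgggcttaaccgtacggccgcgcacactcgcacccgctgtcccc

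Plaur (chr7:24462233-24462482, plus strand): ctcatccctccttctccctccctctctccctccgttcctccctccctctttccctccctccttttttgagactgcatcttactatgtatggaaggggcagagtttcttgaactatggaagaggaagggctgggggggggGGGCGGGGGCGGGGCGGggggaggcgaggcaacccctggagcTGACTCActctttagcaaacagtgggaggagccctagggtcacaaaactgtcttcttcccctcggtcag

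Klk1 and both Klk11 windows held none of the 4 motifs, and Klk8 held 1 GC box, 42 bases before its start. Htra1 held 1 GC box, 139 bases before its start. Plaur held 3 GC boxes, 111, 105 and 100 bases before its start, and an AP-1 element 69 bases before it. Over all 32851 windows of this length in the table, 32.7% held a GC box, 6.75% an AP-1 element, 7.02% a STAT element and 12.4% TATAAA. Of the 20 windows of the measured members, some of which overlap because Prss23 has several starts, 10 held a GC box, 3 an AP-1 element and 1 a STAT element, the last in front of a Prss23 start. A match describes letters only and is no evidence of binding, and no match says only that these letters are not in the window.

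Of the 6 measured membrane-anchored proteases, 5 lay within 2-fold and 1 was higher in the knockout. St14, the gene of matriptase, had a signal of 757 in the knockout and 1015 in the control, a log2 ratio of -0.42. Prss8, the gene of its partner prostasin, had 461 in the knockout and 241 in the control, 1.91-fold higher and just within the limit. The pair thus had ratios of opposite sign, with St14 below 0 and Prss8 above, neither past 2-fold. Tmprss2, which encodes a transmembrane protease of epithelial cells, had 813 in the knockout and 514 in the control (log2 ratio 0.66), and its second probe set had 115 in the knockout and 69.5 in the control (0.73). Both of its probe sets thus read higher in the knockout and within 2-fold. Tmprss4, another transmembrane protease gene, had 181 in the knockout and 323 in the control (log2 ratio -0.84). Hpn, which encodes hepsin, had 22.7 in the knockout and 35.9 in the control (-0.66). The exception was Tmprss13, a further transmembrane protease gene, with 35.2 in the knockout and 8.73 in the control. Since the control lay under the floor, this was at least 2.51-fold higher in the knockout.

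**Figure D2:**
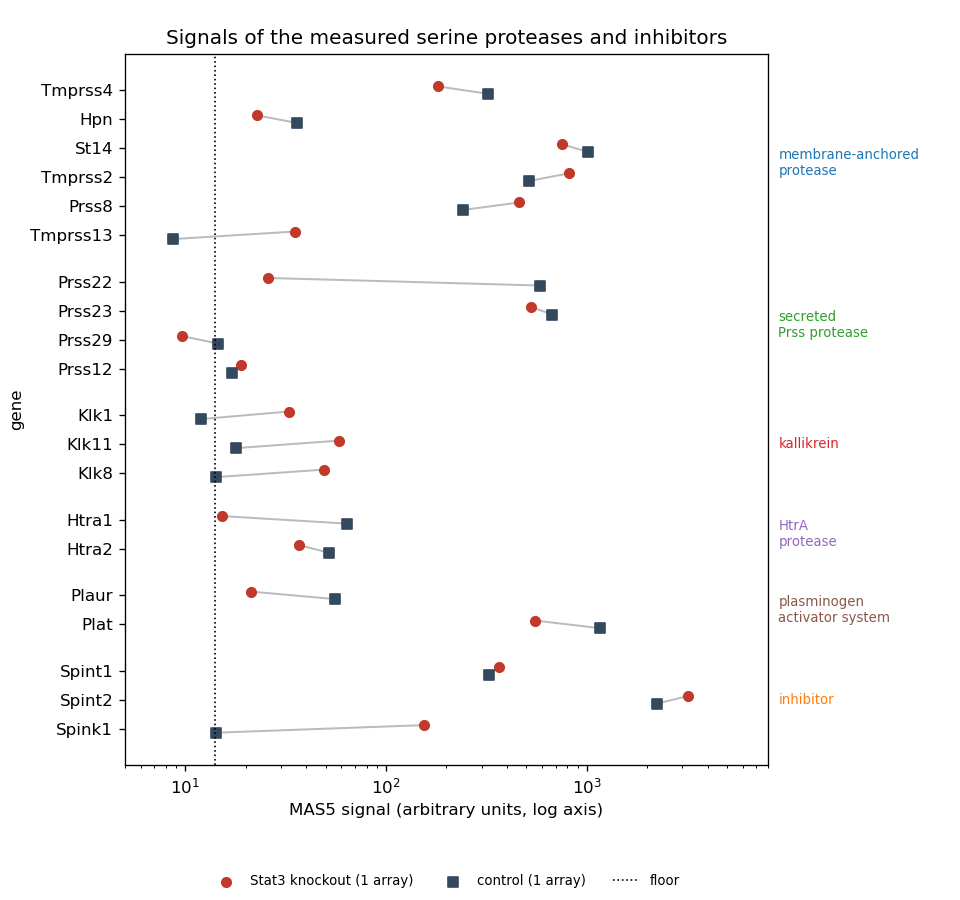
MAS5 signal (horizontal, log axis) of each of the 20 measured members in the Stat3 knockout array (red circles) and the control array (dark squares), grouped by role, with the floor of 14.0 dotted. Prss22 and Htra1 shift to the left in the knockout, Spink1 and the 3 kallikreins shift to the right, and Spink1 and Klk8 start at the floor in the control.

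Among the secreted Prss proteases, 1 of 4 measured genes passed the 2-fold limit. Prss22, which encodes tryptase epsilon, a tryptase of epithelial cells, had a signal of 25.7 in the knockout and 584 in the control. That is 22.7-fold lower (log2 ratio -4.51), the eleventh lowest ratio of the 7513 genes whose signals exceeded the floor in knockout and control alike, and it left 4.40% of the control signal. Prss22 has a single probe set on the array, so no second reading of it exists. With the floor at the 60th percentile its log2 ratio was -3.18, since the knockout value then counts as the floor. In the RefSeq gene order Prss30 stands on one side of it, with signals of 0.474 in the knockout and 0.374 in the control, both under the floor.

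Prss23, a widely expressed secreted protease gene, had 528 in the knockout and 675 in the control (log2 ratio -0.35), and a second probe set had 266 in the knockout and 452 in the control (-0.76). Prss12, which encodes neurotrypsin, had 19.0 in the knockout and 17.1 in the control. Of the implantation serine proteinases, Prss29 had 9.63 in the knockout and 14.5 in the control, at the floor, and Prss28 had 0.338 in the knockout and 0.629 in the control. Neither was detected well enough on these arrays for a difference to be read.

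All 3 measured kallikreins passed the 2-fold limit upward in the knockout, and all 3 had control signals near or under the floor. With control signals this close to the floor, no ratio past 2-fold downward was possible for them. Klk1 has a ratio only through its knockout signal. Their shared direction is therefore no evidence of a joint change. Klk8, which encodes neuropsin, a kallikrein of skin and brain, had 49.1 in the knockout and 14.2 in the control, 3.46-fold higher. Klk11, which encodes a secreted trypsin-like kallikrein, had 58.6 in the knockout and 17.96 in the control, 3.26-fold higher. With the floor value added to both signals their log2 ratios were 1.16 for Klk8 and 1.18 for Klk11. Klk1, the tissue kallikrein that releases kinins from kininogen, had 32.7 in the knockout and 11.98 in the control, at least 2.33-fold higher. The other Klk1 probe sets had 28.9 in the knockout and 7.44 in the control, and 15.4 in the knockout and 5.90 in the control. All 3 of them read higher in the knockout, but every control value was under the floor. Klk1 came within 2-fold with the mean of its probe sets (log2 ratio 0.80) and with the floor value added (0.85). The brightest Klk1 probe set is of a type that can read related kallikreins, so the gene behind its signal is uncertain. With probe sets of such types left out, the log2 ratio of Klk1 was 1.04, again a bound.

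Klk8 and Klk11 belong to the kallikrein cluster on chromosome 7, and their measured neighbours there were dim. Klk10, next to Klk11, had 13.2 in the knockout and 7.46 in the control, and Klk7, next to Klk8, had 2.28 in the knockout and 3.72 in the control. Of 16 kallikrein members named on the array, 13 were under the floor on both arrays, among them all 8 Klk1b genes, mouse relatives of Klk1.

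The HtrA proteases combine a trypsin-like domain with a PDZ domain. Htra1, a secreted member that cuts matrix proteins, had 15.2 in the knockout and 63.8 in the control, 4.20-fold lower. Its second probe set had 15.3 in the knockout and 15.9 in the control, close to the floor on both arrays, so the difference rests on the brighter probe set; with the mean of both, the log2 ratio was -1.06. Htra2, which acts in mitochondria, had 36.8 in the knockout and 51.9 in the control (log2 ratio -0.50), with 31.7 in the knockout and 47.5 in the control in its second probe set (-0.59). Htra3, known from the uterus and placenta, was under the floor on both arrays in all of its probe sets, with 10.96 in the knockout and 10.2 in the control in the brightest.

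Both measured genes of the plasminogen activator system were lower in the knockout. Plat, which encodes tissue plasminogen activator, had 556 in the knockout and 1158 in the control, 2.08-fold lower (log2 ratio -1.06) and just past the limit. With both arrays centred on their medians it was just within it (-0.997). Plaur, which encodes the urokinase receptor, had 21.2 in the knockout and 55.8 in the control, 2.63-fold lower; with the floor value added to both signals it came within the limit (-0.99). Plau, the gene of urokinase, the ligand of that receptor, was under the floor on both arrays, so the receptor was read without a measurable signal of its ligand. Macrophages and neutrophils are known to carry the receptor too, and the part of such cells in the Plaur signal was not tested. The 6 measured macrophage markers had a median log2 ratio of 0.72, with C1qa past 2-fold upward in the knockout. Only Cd68 among them read lower in the knockout, at a log2 ratio of -0.87. The 7 neutrophil markers were under the floor on both arrays.

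The 3 measured inhibitors all had ratios above 0, but the control signal of Spink1 was so near the floor that hardly any lower ratio was possible. Their shared sign is therefore no evidence of a joint change. Spink1 had a signal of 155 in the knockout and 14.2 in the control, 10.9-fold higher (log2 ratio 3.44), the third highest ratio among those 7513 genes. Its control value stood just over the floor of 14.0, so the fold depends on a value at the edge of detection. With the floor at the 60th percentile its log2 ratio was 1.27. It has 1 probe set. Spint2, the gene of HAI-2, had 3183 in the knockout and 2235 in the control (log2 ratio 0.51), and 1928 in the knockout and 1429 in the control in its second probe set (0.43). Spint1, the gene of HAI-1, had 364 in the knockout and 327 in the control (log2 ratio 0.16). The pair of Kunitz inhibitors therefore stayed within 2-fold, as did their target St14. The 4 pancreatic acinar markers on the array reached at most 9.26 in the knockout and 2.62 in the control, all under the floor, and their part in the Spink1 signal was not tested.

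**Figure D3:**
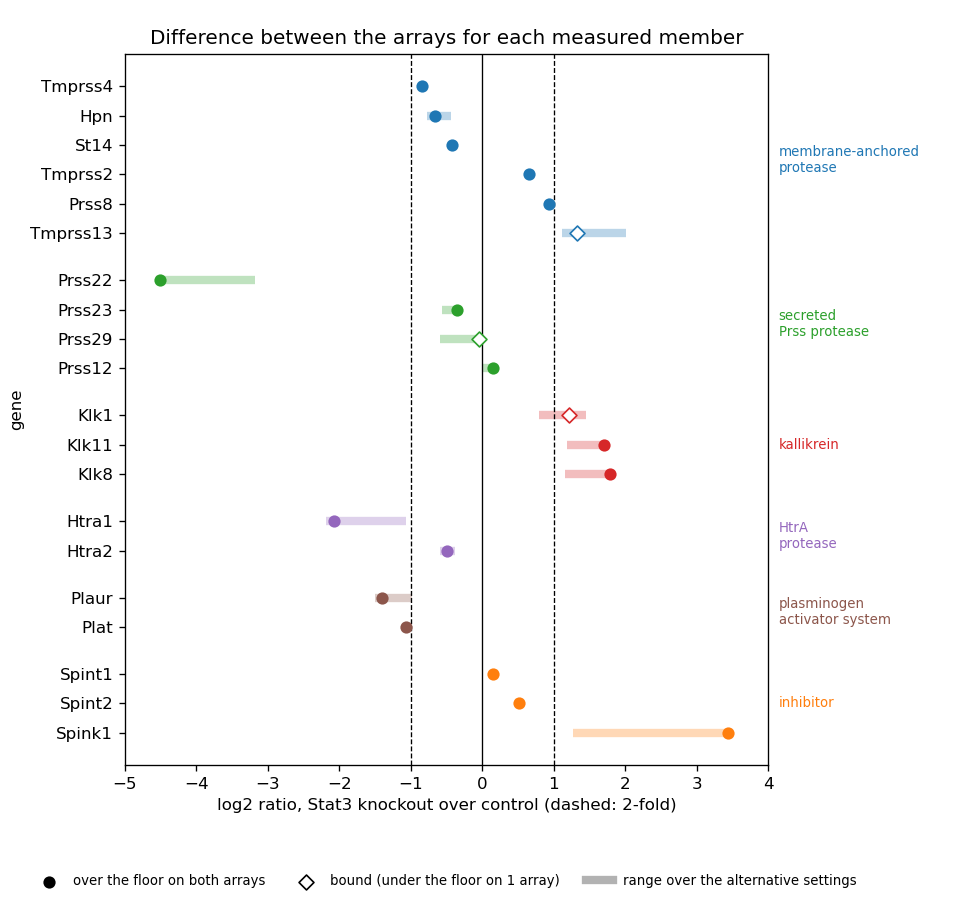
Log2 ratio of Stat3 knockout over control for the 20 measured members by role; filled circles are over the floor on both arrays, open diamonds are bounds, pale bars span the values under the other processing settings and dashed lines mark 2-fold. Kallikreins lie to the right, the plasminogen activator genes to the left, and most membrane-anchored proteases between the dashed lines; Spink1 has the longest bar, from 1.27 to 3.49.

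Of the 20 measured members, 6 had a second measured probe set, and the 7 such probe sets had the same sign as the one used. Their log2 ratios differed from it by 0.06 to 2.02, the last in Htra1. The second Htra1 probe set had a log2 ratio of -0.05, which is hardly a direction. The other Klk1 probe sets had control signals under the floor, so their ratios could only be above 0. The remaining 14 members, Prss22, Spink1, Plat and Plaur among them, rest on 1 measured probe set each.

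The other 35 members were under the floor on both arrays, which is 63.6% of the members against 33.0% of all genes. Their signals ran from 0.211 to 13.2 in the knockout, with a median of 2.74, and from 0.165 to 10.2 in the control, with a median of 2.49. Among the Prss genes these were 15 of 20, namely Prss2 and Prss3, which encode pancreatic trypsinogens, Prss21, which encodes testisin, and Prss16, Prss28, Prss30, Prss32, Prss35, Prss37, Prss39, Prss40, Prss41, Prss42, Prss44 and Prss58. Among the Tmprss genes they were 4 of 7, namely Tmprss3, Tmprss5, Tmprss11d and the enteropeptidase gene Tmprss15. Among the Klk genes they were 13 of 16, namely Klk4, Klk6, Klk7, Klk10, the plasma kallikrein gene Klkb1, and Klk1b1, Klk1b5, Klk1b8, Klk1b11, Klk1b16, Klk1b21, Klk1b24 and Klk1b27. The last 3 were Htra3, Spink4 and Plau. A further 3 probe sets were annotated to several genes that include members. They reached at most 12.01 in the knockout and 4.80 in the control and were given to no gene.

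Genes that work with these enzymes but lie outside the families were read from 5 lists. Over all genes with a ratio, 7.37% passed the limit upward in the knockout and 9.92% downward, with a median log2 ratio of 0.05. The counts of each small list below are to be read beside these shares. In the list of plasminogen system partners, 2 of 6 measured genes passed the limit upward in the knockout and 1 passed it downward; the median log2 ratio was 0.88. Vldlr, a lipoprotein receptor that also clears activator-inhibitor complexes, had 879.8 in the knockout and 261 in the control, 3.37-fold higher, and its 3 other probe sets had log2 ratios of 1.48, 1.56 and 1.48. Plgrkt, a plasminogen receptor gene, had 604 in the knockout and 301 in the control, 2.00-fold higher. S100a10, whose protein binds plasminogen at the cell surface, had 725 in the knockout and 1626 in the control, 2.24-fold lower. Its second probe set had 725 in the knockout and 1329 in the control, within 2-fold. S100a10 therefore read lower in both probe sets, past the limit in 1 of them. The binding partner of S100a10, Anxa2, had 1404 in the knockout and 1932 in the control, and the endocytic receptor gene Lrp2 had 2565 in the knockout and 1481 in the control.

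Among substrates and receptors of epithelial serine proteases, 1 of 8 measured genes passed the limit upward and 2 downward, and the median log2 ratio was -0.49. Pdgfc, a growth factor gene whose latent product serine proteases including tissue plasminogen activator release, had 42.7 in the knockout and 267 in the control, 6.26-fold lower. Its second probe set had 40.6 in the knockout and 236 in the control, so both read alike. Hgfac, which encodes the activator of hepatocyte growth factor and is a target of HAI-1 and HAI-2, had 12.9 in the knockout and 73.1 in the control, at least 5.21-fold lower. Scnn1a, the alpha subunit of the epithelial sodium channel that prostasin activates, had 43.6 in the knockout and 15.5 in the control, 2.81-fold higher. That control value stood just over the floor of 14.0. Of the other subunits, Scnn1b had 1.79 in the knockout and 16.2 in the control, and Scnn1g was under the floor on both arrays. Epcam, a matriptase substrate, had 2335 in the knockout and 3003 in the control, and Cdcp1, a cell surface substrate of serine proteases, had 978 in the knockout and 719 in the control.

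**Figure D4:**
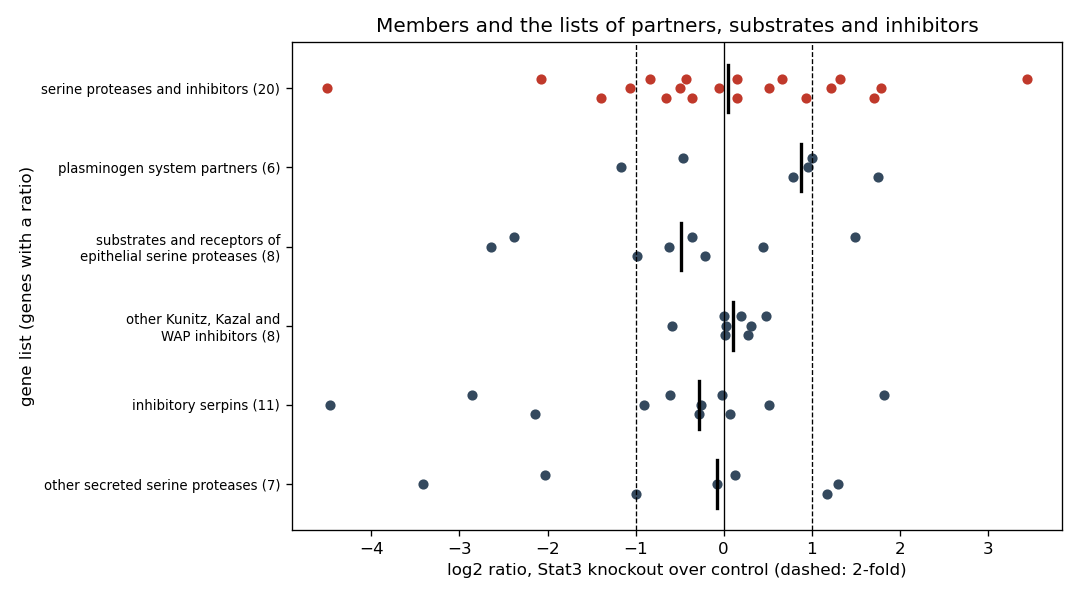
Log2 ratio of Stat3 knockout over control for every measured gene of the members (red, 20 genes) and of the 5 lists (dark), with the median of each as a black bar and dashed lines at 2-fold. The other Kunitz, Kazal and WAP inhibitors all lie within 2-fold, while the serpins reach from -4.47 to 1.82.

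Inhibitors outside the Spint and Spink families, and serpins, were read in a pair of lists. Of 8 measured genes for other Kunitz, Kazal or WAP inhibitors, 0 passed 2-fold in either direction and the median log2 ratio was 0.11. Wfdc2, a WAP domain gene, had 4878 in the knockout and 4807 in the control, and App, whose longer forms carry a Kunitz domain, had 2205 in the knockout and 1927 in the control. Of 11 measured genes on the serpin list, 1 passed the limit upward in the knockout and 3 downward, and their median was -0.28. Serpina1c, one of the mouse alpha-1-antitrypsin genes, whose copies are near-identical, so that its probe set may read several of them, had 3.93 in the knockout and 310.2 in the control, at least 22.1-fold lower. Serpina1b, another of these copies, had 178 in the knockout and 169 in the control (log2 ratio 0.07), so the 2 readings differ. Serpinb1a, an inhibitor of neutrophil proteases, had 64.5 in the knockout and 466 in the control, 7.23-fold lower. Serpinb5, the gene of maspin, had 6.08 in the knockout and 61.9 in the control, at least 4.41-fold lower. Serpini1, the gene of neuroserpin, an inhibitor of tissue plasminogen activator, had 85.0 in the knockout and 24.1 in the control, 3.53-fold higher, beside the lower Plat signal. Serping1 and Serpinb6a stayed within 2-fold, with log2 ratios of -0.61 and -0.01.

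Of 7 measured genes for other secreted serine proteases, 2 passed the limit upward and 2 downward, and the median log2 ratio was -0.08. Cfi, the gene of complement factor I, had 33.9 in the knockout and 360.2 in the control, 10.6-fold lower. Pcsk6, a proprotein convertase gene, had 17.0 in the knockout and 69.2 in the control, 4.08-fold lower. The complement protease genes C1ra and C1s1 were 2.46-fold and 2.26-fold higher, with 45.9 in the knockout and 18.7 in the control, and with 140 in the knockout and 61.7 in the control. Cfb had 144 in the knockout and 288 in the control, 1.99-fold lower and just within the limit, and the convertase gene Furin had 90.3 in the knockout and 82.3 in the control.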

How the data were processed

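For 22690 probe sets, 64 of them controls, an intensity was deposited by the authors for each array of the type Affymetrix Mouse Genome 430A 2.0. Per the submitters' processing notes, MAS5 and Affymetrix Expression Console 1.1 were used. Per the labels, each array received label made from 100 ng of RNA, and the extraction paragraph speaks of human stromal cells although all other fields say mouse epithelium. Detection calls, scan dates and batches were not used here.

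Of the other probe sets, 20380 had 1 gene in the platform annotation, 691 several and 1555 none; RefSeq (GRCm38.p6) held 99.9% of the gene IDs. The brightest probe set by mean log2 signal stood for a gene. The members and lists were chosen with earlier results of these data known. Every measured member is named. Each list gives up to 4 genes past 2-fold by size and 2 others by signal, besides Serpina1b, Scnn1b and Scnn1g. Ratios were computed in Python 3.11.15 with pandas 2.3.3 and numpy 2.4.6, and the steps were tested on simulated data. The changes put into those data were in bright genes only, so the test does not cover members near the floor. Alternatives changed the scaling (median, quantile, or loess with span 0.3 in statsmodels 0.14.6), the floor, the probe sets and the fold limit. The number of arrays limits the precision.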

Additional observations from a re-analysis of the deposited data

How the results depend on the processing

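The count of 5 members past 2-fold upward and 4 downward depended on the floor and the limit. With the floor at the 60th percentile, 10 members had a ratio, 1 of them higher and 2 lower, against 5.61% and 7.27% of all genes. With no floor, all 55 had a ratio, 12 higher and 12 lower, against 15.5% and 14.3% of all genes, and values under the floor have no order. A 3-fold limit left 3 higher and 2 lower, against 1.72% and 4.83% of all genes. Without the genes under the floor on 1 array, an alternative chosen after seeing the data, 3 members were higher and 4 lower, against 7.07% and 8.63% of all genes, and the median log2 ratio moved to -0.35, by its construction on 17 members. The other settings kept both counts within 1.5 times, but the number of members with a ratio changed in some of them. With the floor at the 20th percentile, 41 members had a ratio, 7 higher and 4 lower, against 10.0% and 10.2% of all genes. With the floor value added to both signals, all 55 had a ratio, 4 higher and 3 lower, against 3.46% and 5.40% of all genes. The downward counts in both of these settings were close to the share over all genes. Across 9 planned settings that changed ratios, none of 164 values of single members changed sign. The settings that changed only the floor, or added it to both signals, could not reverse a sign. Nor could the settings that changed the probe sets for the 13 members with 1 probe set, whose values were left as they were or dropped. Of the 164 values, 4 crossed the 2-fold limit. Plat did so with median centring (-0.997) and Klk1 with the mean of its probe sets (0.80). Plaur (-0.99) and Klk1 (0.85) did so with the floor value added to both signals. Prss22 ranged from -4.57 to -3.18 and Spink1 from 1.27 to 3.49, the lowest Spink1 value with the floor at the 60th percentile. No paired analysis was possible because each group has 1 array and the labels give no replicate numbers.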

Other observations

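Protein-coding genes next to the 20 measured members in the RefSeq gene order were read as well, a step chosen after the data had been seen. Of 40 sides, 11 had a gene with a ratio, of which 1 was past 2-fold upward in the knockout and 2 downward. Over all genes with a ratio, 7.37% were past it upward and 9.92% downward. Next to Htra1, which was lower, Plekha1, a phosphoinositide-binding adaptor gene, had 696 in the knockout and 290.4 in the control (log2 ratio 1.26). Next to Tmprss2, Ripk4, a kinase gene of epithelial differentiation, had 691 in the knockout and 369 in the control (0.90), while Fam3b on the other side had 3.60 in the knockout and 49.1 in the control, a log2 ratio of -1.81 against the floor. Next to Plaur, Cadm4, a cell adhesion gene, had 26.3 in the knockout and 77.8 in the control (-1.57), the same direction as Plaur. Next to Plat, Ikbkb, a kinase gene of the NF-kappa-B pathway, had 516 in the knockout and 448 in the control (0.20). Next to St14, Aplp2, which carries a Kunitz domain in some forms, had 1015 in the knockout and 728 in the control (0.48).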
